A study of Solanum lycopersicum with 3 samples.

Results

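E8, E4 and fruit-specific protein are markers of tomato fruit ripening, and 4 probes of the TOM2 long-oligo array carry their names: SGN-U212799 (protein E8, described as a 1-aminocyclopropane-1-carboxylate (ACC) oxidase homolog), SGN-U213992 and SGN-U213993 (fruit-ripening protein E4, a peptide methionine sulfoxide reductase) and SGN-U231977 (fruit-specific protein). These 4 were taken by name from 11863 probe names other than controls and empty spots, and all 4 were among the 5720 probes bright enough to be tested. They were picked with their ratios on these same arrays known, so their values are given as a description, with no test.

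The arrays compared ripe fruit of the Lycb-1 line with that of the wild type (WT), the tomato cultivar Zhongshu No. 5 from which the line was derived. The Lycb-1 plants carried a citrus lycopene beta-cyclase gene under the constitutive CaMV 35S promoter and the kanamycin resistance gene nptII, and the line used for the arrays was the progeny of 1 primary transformant with a single insertion, so effects of the insertion cannot be told apart from those of the transgene. Both genotypes were grown in a glasshouse, their fruit was deseeded, and each of the 3 arrays hybridised 1 pool of fruit of each genotype. Each pool mixed fruits of 3 plants, and the paper does not say that the pools came from separate growths. Lycb-1 cDNA was labelled with Cy5 and WT cDNA with Cy3 on every array. As the dyes were never exchanged, a dye effect on a single probe cannot be told apart from the genotype.

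Tomato is a climacteric fruit, in which a burst of ethylene at the breaker stage starts and drives ripening. E4 and E8 are classic ethylene-induced transcripts of that stage: both rise when fruit is given ethylene, and their promoters have long been used to drive transgenes in ripening fruit. E8 belongs to the family of iron- and oxoglutarate-dependent dioxygenases that includes ACC oxidase, the last enzyme of ethylene synthesis, and fruit in which E8 is silenced makes more ethylene. E4 belongs to the enzymes that reduce oxidised methionine in proteins. Fruit-specific protein is named for a transcript abundant in fruit. RefSeq holds tomato genes under the symbols E8 and MSRA, of which E4 is a synonym, and no RefSeq gene was assigned to fruit-specific protein.

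All 4 probes had a higher normalised signal in Lycb-1 than in WT on each of the 3 arrays. The mean ratio was 6.64-fold for E4 SGN-U213992, which stayed below the limit of the scale. It was at least 6.40-fold for E4 SGN-U213993, at the limit on 2 arrays, and at least 1.86-fold for E8, at the limit on 1. For fruit-specific protein it was at least 3.96-fold. Its spots were at the limit on all arrays, so it cannot be ranked against E4. Over all 5720 probes, 20.4% were higher on all 3 arrays and 2.52% had a mean at least 2-fold higher, against 4 of 4 and 3 of 4 here. As these ratios led to the choice of the probes, nothing is read from that difference. Since the samples are whole fruit, more cells expressing a gene and more RNA per cell cannot be told apart.

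The brightness of these spots limits what their ratios can say. On each array several Cy5 values lay within 1% of the highest Cy5 value, at 71048 on replicate 1, 85139 on replicate 2 and 65560 on replicate 3, and a transcript above that level gives no brighter spot. Within this limit lay 15, 17 and 9 spots of 7, 9 and 6 probes, of which 3, 2 and 1 were spots of the markers. The lowest Cy5 value counted as at the top was 71018, 84956 and 65521, and the next value below it 68445, 83327 and 64038. In Cy3 only 1 spot per array lay as close to the highest value, so the WT values of the markers had no such limit. Over all arrays 12 probes were at the top of the Cy5 scale at least once, and 3 of these were markers. Only 3 probes were there on every array: fruit-specific protein, M84744 for phytoene synthase 1, the first committed enzyme of carotenoid synthesis, and SGN-U213213 for polygalacturonase-2, which breaks down pectin in softening fruit.

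**Figure D1:**
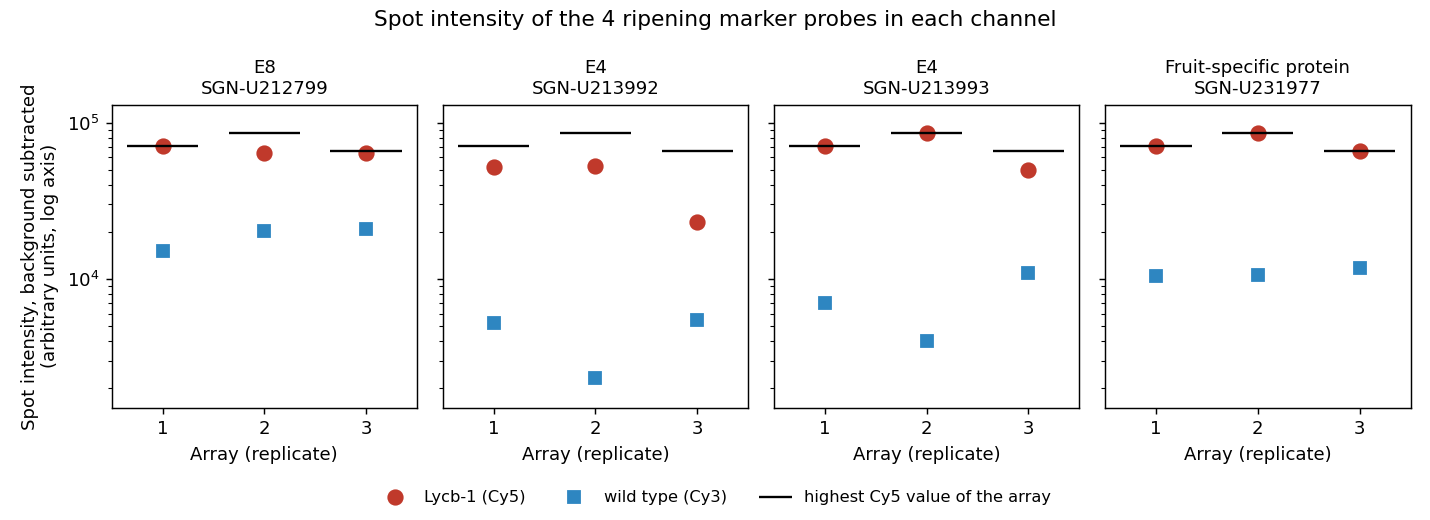
Background-subtracted spot intensity (arbitrary units, log axis) of each of the 4 marker probes on the 3 arrays, in Lycb-1 (Cy5, circles) and WT (Cy3, squares), with the highest Cy5 value of each array as a bar. Fruit-specific protein reached the bar on all 3 arrays, E4 SGN-U213993 on replicates 1 and 2, E8 on replicate 1 and E4 SGN-U213992 on none.

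E8 had the smallest ratio as measured of the 3 markers on every array, with its spot at the Cy5 limit on replicate 1. The Lycb-1 intensity of SGN-U212799 was 71039, 64034 and 63664 on replicates 1, 2 and 3, and the WT intensity was 14988, 20273 and 21000. The Lycb-1 values were thus close to each other, and the array with the dimmest WT spot was also the one on which the Lycb-1 spot reached the limit. On the other arrays the Lycb-1 spot was at 75.2% and 97.1% of the highest value. Normalised log2 ratios of Lycb-1 over WT were 1.38, 0.77 and 0.53, with a mean of 0.89 ± 0.44 (SD, n = 3), or 1.86-fold. As the ratio on replicate 1 could be too low, this mean is a lower bound and its SD holds a limited value.

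A second E8 probe, SGN-U212800, had the same description and never reached the top of the scale. Its intensity was 55203, 45630 and 32334 in Lycb-1 and 12020, 14584 and 12867 in WT. The log2 ratios of 1.42, 0.92 and 0.74 differed from those of SGN-U212799 by 0.15 and 0.21 on replicates 2 and 3, where neither probe was at the limit. The mean was 1.03 (SE 0.22, 2.04-fold), and the limma test across all probes gave an adjusted p of 0.207. Both probes may report 1 transcript or near-identical copies, which the array descriptions do not separate, so they were not counted as independent evidence.

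Of the other probes named after E8 and bright enough to be tested, all had smaller means. Among the 3 described as E8 protein homologs, SGN-U212798 had an intensity of 57683, 53341 and 47294 in Lycb-1 and of 29691, 39296 and 30731 in WT, and its normalised log2 ratios were 0.04, -0.11 and 0.10. Against SGN-U212799 these were lower by 0.89 and 0.43 on replicates 2 and 3, and by at least 1.34 on replicate 1, where SGN-U212799 was at the Cy5 limit. The second homolog, SGN-U232128, had ratios of 0.74, 0.35 and 0.04 with a mean of 0.38 (SE 0.22, limma adjusted p of 0.445), and SGN-U225843 had 1.29, 0.13 and 0.28 with a mean of 0.57 (SE 0.29, limma adjusted p of 0.403). In both the ratio was highest on replicate 1, as it was for the E8 probes. Another 3 probes described as E8 were too dim to be tested, with an intensity under 400 in both channels. These dim probes did not move alike. SGN-U240682 had 244, 292 and 393 in Lycb-1 and 52, 166 and 247 in WT. Its log2 ratios were 2.37, 0.53 and 0.82 with a mean of 1.24, above that of both bright E8 probes. SGN-U212797 went the other way, with 32, 4 and 45 in Lycb-1 and 57, 85 and 86 in WT. Its log2 ratios were -0.17, -3.43 and -0.32 with a mean of -1.31. SGN-U212804 averaged 20, 40 and 20 in Lycb-1 and 21, 37 and 46 in WT over its 11 spots. Its log2 ratios were 1.15, 1.18 and -0.44 with a mean of 0.63, without the spots at or below 0.

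E4/E8 binding protein-1 is named for binding to the promoters of these genes, and its probes did not move in 1 direction. SGN-U217693 had log2 ratios of 0.22, -0.59 and 0.08, and SGN-U216046 had -0.43, 0.36 and -0.07. The means of -0.10 and -0.05 gave limma adjusted p-values of 0.864 and 0.934.

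E4 was higher in Lycb-1 on every array, by amounts that differed widely between arrays. For SGN-U213992 the Lycb-1 intensity was 51747, 52797 and 23134, and the WT intensity 5222, 2333 and 5481. This probe stayed below the top of the scale throughout, at 72.8%, 62.0% and 35.3% of it, so its ratio was measured on all arrays. The log2 ratios were 2.58, 4.11 and 1.50, which correspond to between 2.83-fold and 17.3-fold, with a mean of 2.73 ± 1.31 (SD, n = 3). By this mean SGN-U213992 was at place 8 of the 5720 probes as measured.

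SGN-U213993, the other E4 probe, gave similar ratios from a separate spot in another print-tip block. Its Lycb-1 intensity was 71043, 85134 and 49953 and its WT intensity 6979, 4029 and 10950. The first and the second of these Lycb-1 values were at the top of the scale, so the ratios of those arrays could be too low. The log2 ratios were 2.67, 3.93 and 1.44, with a mean of 2.68 ± 1.24 (SD, n = 3). On the only array on which SGN-U213993 was below the top, replicate 3, its ratio was 2.71-fold, and on that array SGN-U213992 gave 2.83-fold. Their log2 ratios differed there by 0.06. On replicates 1 and 2 the difference between the E4 probes could not be measured, since SGN-U213993 was at the limit. SGN-U213992 alone, measured throughout, ranged over more than 2 log2 units between arrays. Leaving out replicate 2 lowered the mean log2 ratios to 2.04 and 2.05, and leaving out replicate 3 raised them to 3.35 and 3.30.

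The array with the largest E4 ratio was the one with the dimmest WT spot. After the channels were put on a common scale across arrays, the WT level of SGN-U213992 was 12.68, 11.34 and 12.81 (log2) and its Lycb-1 level 15.26, 15.46 and 14.31. For SGN-U213993 the WT level was 13.05, 12.16 and 13.90 and the Lycb-1 level 15.72, 16.08 and 15.34. In both probes replicate 2 had the lowest WT level. The Lycb-1 level of SGN-U213992 was also highest there, while for SGN-U213993 replicates 1 and 2 have no order, as both were at the limit. No Lycb-1 level overlapped a WT level. Polygalacturonase-2, a softening enzyme, also had its lowest WT level on replicate 2 (14.41, 12.86 and 13.78). The WT level of fruit-specific protein did not follow that order and ranged over only 0.27 log2 units (13.77, 13.69 and 13.96). E8 had its lowest WT level on replicate 1 instead (14.17, 14.76 and 14.95). Whether the WT pools differed in ripeness was not tested.

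Fruit-specific protein, SGN-U231977, reached the Cy5 limit with each of its spots. Its Lycb-1 intensity was 71045, 85135 and 65538 and its WT intensity was 10486, 10651 and 11817. The WT values lay close together, and the Lycb-1 values were those of the scale itself. The log2 ratios of 1.71, 2.45 and 1.80 therefore give a lower bound. Their mean of 1.99 ± 0.40 (SD, n = 3) puts the mean over these arrays at no less than 3.96-fold under this normalisation, with bounds of 3.28-fold to 5.47-fold on single arrays. On replicate 3 the bound for fruit-specific protein was above the ratio of both E4 probes. Because the highest Cy5 value differed between arrays, the SD of this probe does not measure how the transcript varied. No further probe carried this name, and that of E4 occurred otherwise only in the name of E4/E8 binding protein-1.

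**Figure D2:**
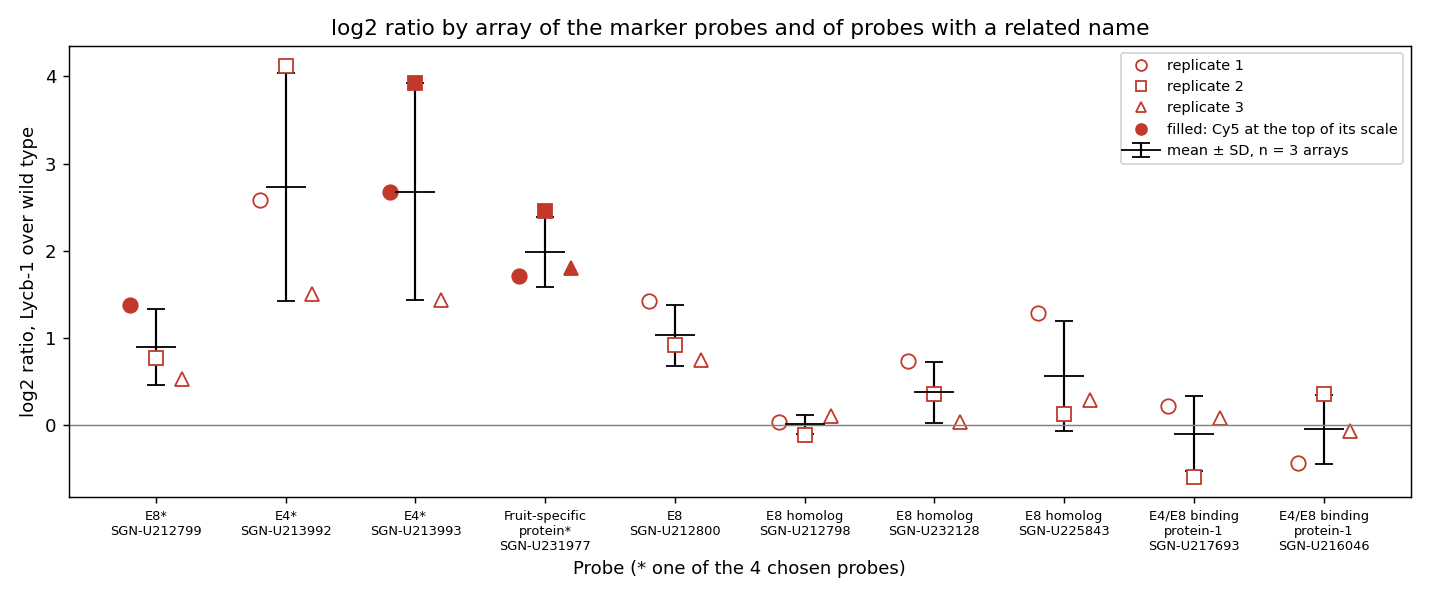
Normalised log2 ratio of Lycb-1 over WT on each array for the 4 marker probes (starred) and for other tested probes with an E8 or E4 name; symbols are replicates, filled where the Cy5 spot was at the top of its scale, and lines give the mean ± SD of 3 arrays. All marker values lie above 0, the E4 probes spread most, and the E8 homolog SGN-U212798 and the binding protein probes lie around 0.

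Normalisation changed the ratios of these bright spots, as the loess curve subtracts the trend of the ratio with brightness. Before normalisation the Lycb-1 to WT ratio of E8 SGN-U212799 was 4.74-fold, 3.16-fold and 3.03-fold, and the curve took 0.87, 0.89 and 1.07 log2 units from it. The ratios computed by the authors for the same spots were 2.61-fold, 1.88-fold and 1.46-fold. With no normalisation the mean log2 ratio of E8 was 1.83, and with all arrays centred on their median it was 1.74 instead of 0.89. The E8 probe below the top of the scale shifted to a similar degree, as SGN-U212800 had a mean of 1.72 with no normalisation.

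E4 depended less on this step. The raw ratios of SGN-U213992 were 9.91-fold, 22.6-fold and 4.22-fold and those of SGN-U213993 were 10.2-fold, 21.1-fold and 4.56-fold. The mean log2 ratios with no normalisation were 3.30 and 3.31, against 2.73 and 2.68 with print-tip loess. For fruit-specific protein the raw ratio was 6.78-fold, 7.99-fold and 5.55-fold, and the mean log2 ratio was 2.74 with no normalisation. When spots at the top of the scale and the 4 markers were given no weight in the curve, the means were 1.03 for E8, 2.75 and 2.74 for E4 and 2.10 for fruit-specific protein. Every marker stayed above 0 on all 3 arrays under each of the 6 normalisations, while the homolog SGN-U212798 ranged from -0.05 with 1 loess curve per array to 0.67 with no normalisation.

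**Figure D3:**
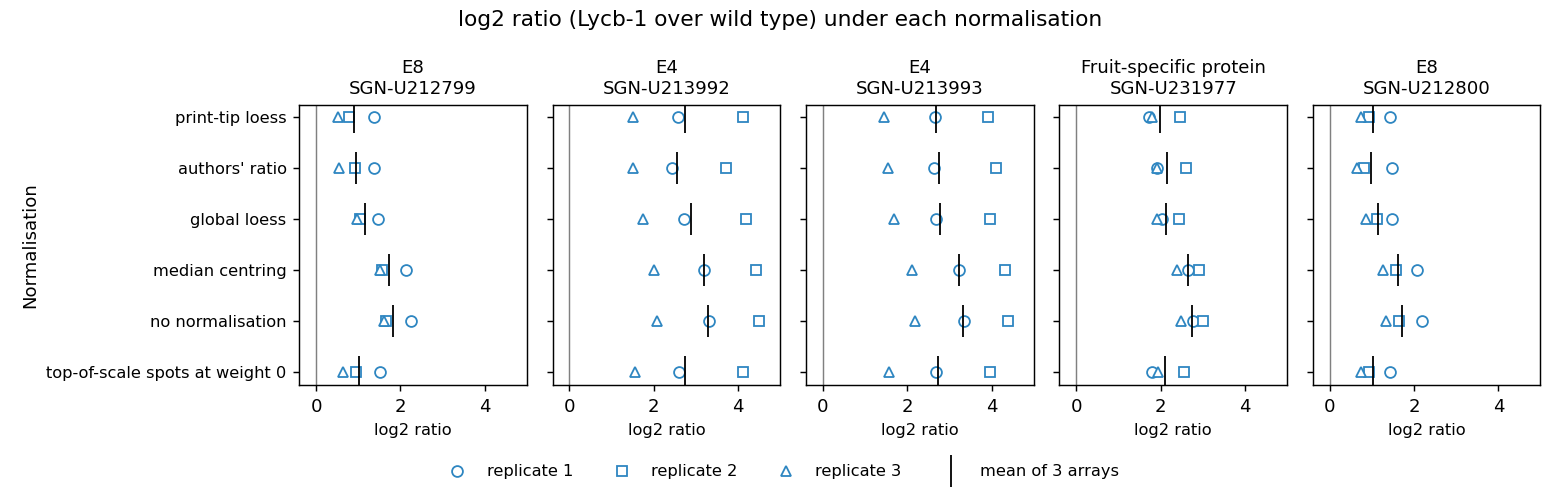
Log2 ratio of Lycb-1 over WT on each array (symbols) and their mean (bar) for the 4 marker probes and the second E8 probe, SGN-U212800, under 6 normalisations. Median centring and no normalisation move E8 SGN-U212799 from 0.89 to 1.74 and 1.83, while the order of the arrays stays the same for E4 SGN-U213992. For E4 SGN-U213993 replicates 1 and 2 have no order, as both were at the Cy5 limit.

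The probes whose ratios lay nearest to each marker over the 3 arrays were found by Euclidean distance between the 3 log2 ratios. The E4 probes were each other's nearest, at a distance of 0.22, followed for both by a cytochrome P450 probe, SGN-U217123, with ratios of 2.61, 3.63 and 1.23 (distance 0.56 and 0.37). They were followed by SGN-U224395, described as unknown, for SGN-U213992 (0.94), and SGN-U220183, of the auxin-responsive SAUR family, for SGN-U213993 (0.92). Nearest to E8 SGN-U212799 were SGN-U221489, a homeodomain-like protein with ratios of 1.43, 0.70 and 0.56 (0.10), SGN-U213038, a cyclin family protein (0.20), and SGN-U220691, a magnesium transporter (0.25).

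Fruit-specific protein lay nearest to SGN-U213666, described as related to asparagine synthase, with ratios of 1.76, 2.38 and 2.19 (0.40). Next were probes SGN-U212595 (0.45) and SGN-U212594 (0.65) for histidine decarboxylase, an enzyme whose transcript TOM92 is known from ripening tomato. For fruit-specific protein on all arrays, E4 SGN-U213993 on replicates 1 and 2 and E8 on replicate 1, these distances compare ratios that the Cy5 limit can hold down, so they describe the listed values and not the transcripts. With 3 arrays they hold for these libraries only.

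Other ripening genes were read from 133 probes whose descriptions name ripening or a ripening enzyme, of which 64 were tested. The limma test across all probes called 3 of 5720, or 0.0524%, at an adjusted p under 0.05, and 0 of the 64. At an unadjusted p under 0.05, 14 were higher and 9 lower (21.9% and 14.1%), where 6.82% and 8.62% of all probes were. Higher on all 3 arrays were 28 of the 64 (43.8%) and lower on all 3 were 11 (17.2%), where 20.4% and 21.3% of all probes were. These shares count probes and not genes. The 28 held all 5 tested histidine decarboxylase probes and 6 of 7 for phytoene synthase, which may report few transcripts. The median log2 ratio was 0.27, against -0.01 over all probes, and by replicate it was 0.00, 0.49 and 0.29.

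Of the 9 ripening probes with a mean at least 2-fold higher, 5 were for histidine decarboxylase, whose means ran from 1.78 to 2.21. The largest of these was SGN-U212615 (SE 0.27, limma adjusted p of 0.104). Polygalacturonase-2 had log2 ratios of 0.92, 3.00 and 1.75 and a mean of 1.89 (SE 0.42, limma adjusted p of 0.217), a value that the top of the Cy5 scale could hold down. For phytoene synthase 1, 4 probes were tested and did not move alike. M84744 gave 0.80, 0.84 and 0.75, also at the top of the scale on each array, SGN-U232158 a mean of 0.87 (limma adjusted p of 0.195), SGN-U212843 a mean of 0.52 over 11 spots (limma adjusted p of 0.384) and SGN-U212834 a mean of -0.26 (limma adjusted p of 0.573).

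The list did not move as a whole. Probes with invertase or pectinesterase in their description, inhibitors included, had medians of -0.81 and -0.38, and acid invertase SGN-U212902, which splits sucrose, had the lowest mean of the list at -1.73 (limma adjusted p of 0.195). MADS-RIN (SGN-U212614), a transcription factor required for ripening, had ratios of 0.51, -0.23 and 0.01 (limma adjusted p of 0.857).

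The ethylene list held 83 probes for synthesis, perception and response, of which 48 were tested and 0 called. All 3 arrays were above 0 for 5 of them and below 0 for 7 (10.4% and 14.6%, against 20.4% and 21.3% of all probes). At an unadjusted limma p under 0.05, 2 were higher and 5 lower (4.17% and 10.4%, near the 6.82% and 8.62% of all probes). The median log2 ratio was -0.15. The lowest means were those of SGN-U222064, an AP2/ERF transcription factor, at -2.35, of SGN-U216050, ethylene-responsive transcription factor 4, at -1.20, of SGN-U213523, an ACC synthase, at -1.15 and of SGN-U213917, ethylene-responsive transcription factor 3, at -1.14 (limma adjusted p of 0.298, 0.476, 0.393 and 0.290). For all but the AP2/ERF probe and transcription factor 3 the arrays disagreed in sign. With no normalisation the median of the list turned to 0.03, while the median of all probes was then 0.10.

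Within the dioxygenase family of E8, 12 of 39 probes were tested and 0 called, with a median of -0.07. The second E8 probe had the highest mean, and next to it stood ACC oxidase 1 (SGN-U212786), at 1.36, 1.54 and -0.26 with a mean of 0.88 (limma adjusted p of 0.370), and ACC oxidase 4 (SGN-U212788), at 0.84, 1.03 and 0.20 with a mean of 0.69 (limma adjusted p of 0.290). Lowest was SGN-U228586, an oxoglutarate-dependent dioxygenase, at -0.50 (limma adjusted p of 0.338). At an unadjusted limma p under 0.05, 2 of the 12 were higher (16.7%) and 0 lower, where 6.82% and 8.62% of all probes were. These 2 were ACC oxidase 4 and the second E8 probe. As the latter may report the same transcript as the marker, nothing about the rest of the family is read from this count. This list shares 6 probes with the ethylene list.

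Within the family of E4, the methionine sulfoxide reductases, 4 of 5 probes were tested and 0 called, with means from 0.04 to 0.69 and a median of 0.30. The highest was SGN-U219932, at 0.89, 0.64 and 0.53 (SE 0.19, limma adjusted p of 0.249), the only one at an unadjusted p under 0.05. SGN-U214748, a peptide methionine sulfoxide reductase as E4 is, had 0.40, 0.94 and 0.05 (limma adjusted p of 0.408), while SGN-U217937 and SGN-U216219 had means of 0.14 and 0.04 (limma adjusted p of 0.737 and 0.945). All 4 means were under 1, against 2.73 and 2.68 for the E4 probes, a difference that was not tested.

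**Figure D4:**
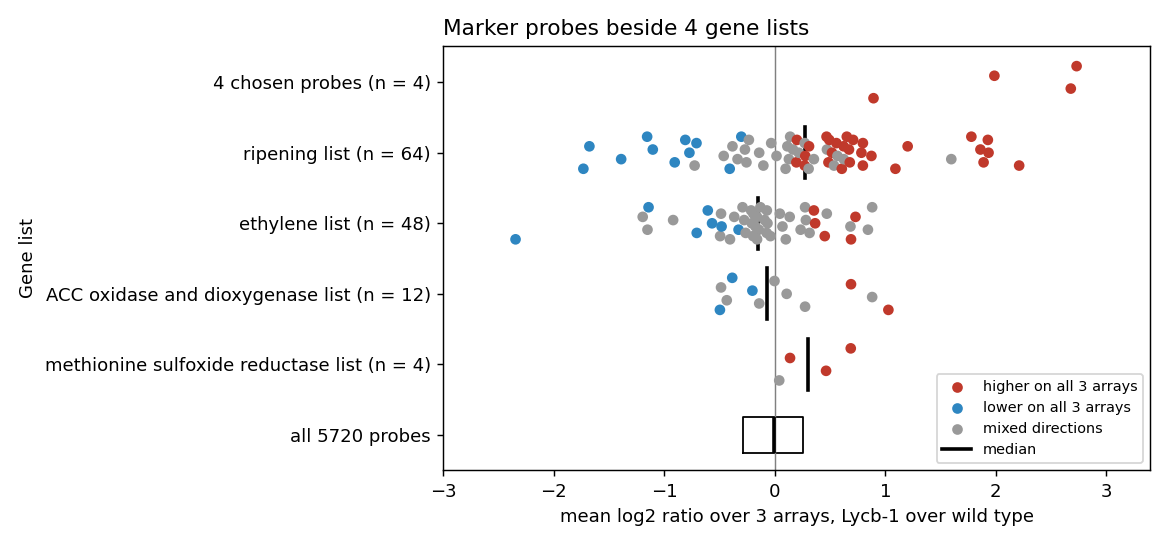
Mean log2 ratio of Lycb-1 over WT over 3 arrays for the 4 marker probes and for the tested probes of 4 gene lists, coloured by whether all arrays agreed in sign, with the median of each list; vertical scatter only separates points, and the box spans the quartiles of all 5720 probes. The ripening list runs from -1.73 to 2.21 around a median of 0.27, and both E4 probes lie above its highest member as measured.

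The labels were checked on nptII, which is part of the construct, and on a lycopene beta-cyclase probe. Whether the latter probe reports the citrus transgene or the tomato gene was not tested. The nptII probe X57709 was at least 15.3-fold higher in Lycb-1 (log2 6.80, SE 0.46, limma adjusted p of 0.045), being under 400 in WT on all 3 arrays, and the lycopene beta-cyclase probe SGN-U221920 had a log2 ratio of 3.08 (SE 0.20, limma adjusted p of 0.045). Among markers of other tissues, 3 of 6 seed probes were tested, with a median log2 ratio of -0.54. On all arrays 1 was higher and 1 lower (33.3% and 33.3%). For green tissue 9 of 22 were tested (median -0.12, 3 or 33.3% higher and 4 or 44.4% lower). For epidermis and cuticle 11 of 23 were tested (median -1.17, 0 higher and 4 or 36.4% lower). The lowest mean of this list, -1.45, was also the lowest of the seed list, so these lists may share a probe. Over all probes 20.4% were higher and 21.3% lower on all 3 arrays. Of the 14 ripe fruit probes 7 were tested (median 0.80, 5 or 71.4% higher and 0 lower). These 7 were already in the ripening list. They were 4 probes for phytoene synthase 1, 2 for expansin and the polygalacturonase-2 probe. By replicate the epidermis and cuticle median was 0.05, -1.51 and -2.41, beside log2 ratios of 2.58, 4.11 and 1.50 for E4 SGN-U213992. Both were lowest on replicate 3, but E4 was highest on replicate 2 and the cuticle median on replicate 1. The part of these tissue differences in the marker ratios was not tested.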

How the data were processed

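Ripe-fruit RNA of Lycb-1 (Cy5) and WT (Cy3) was hybridised to 3 TOM2 arrays. The authors deposited, for each spot, background-subtracted intensity values of both channels (scanned with LuxScan and quantified with ImaGene, versions not given in the sources used here) and the Lycb-1 to WT ratio, which they normalised by print-tip lowess (marray). The value table they deposited is log2 of that ratio (largest difference 4.87e-09). Their lists of differentially expressed spots hold the outcome of their own comparison and were not used. Since the highest Cy5 value differed between arrays, the channels may have been rescaled before deposit.

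Intensities of 0 or less were dropped, and log2 ratios were normalised with limma 3.58.1 under R 4.3.3 (print-tip loess, 286 spots in each of 48 blocks), with the 13 control names at weight 0. Of 13728 spots, 1568 were empty, and 5846 that the authors kept as bright enough on all 3 arrays were used; spots of a probe were averaged (5720 probes). The mean ratio was tested against 0 with lmFit and eBayes (two-sided, Benjamini-Hochberg). Common-scale levels used Aquantile. Where a channel was under 400 on all arrays, its fold is a bound. The procedure was tested on simulated data. Precision is limited by the number of arrays. Probes named in the text were the 4 markers, others bearing their names and the 3 nearest to each. Also named were the up to 4 largest means of each list and probes at the top of the Cy5 scale throughout. The probes of the label check were named too. MADS-RIN, SGN-U214748 and the families of the ripening list were added after their values were seen. The members and lists were chosen with earlier results of these data known. Lists were words in the array descriptions, with the 4 markers left out, and 0 of the probe names matched the RefSeq table (assembly SLM_r2.1), so E8 and E4 were matched by symbol. The alternatives were other normalisations, filters, tests and leaving out arrays. Plots used matplotlib 3.10.9 under Python 3.11.15.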

Additional observations from a re-analysis of the deposited data

How the results depend on the processing

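All 4 markers stayed higher in Lycb-1 under each alternative: the mean log2 ratio ran from 0.65 to 1.83 for E8, from 2.04 to 3.35 for E4 SGN-U213992, from 1.44 to 3.31 for E4 SGN-U213993 and from 1.76 to 2.74 for fruit-specific protein. Median centring and no normalisation moved E8 to 1.74 and 1.83 and fruit-specific protein to 2.65 and 2.74, more than 1 SD. Leaving out the arrays at the top of the Cy5 scale, chosen after seeing the data, gave 0.65 for E8 and 1.44 for E4 SGN-U213993.

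The count of probes called depended on the processing. Against 3 of 5720, it was 0 with the authors' ratio and with the deposited value table. With 1 loess curve per array it was 9, with median centring 16 and with no normalisation 17. Without each array in turn it was from 0 to 1. It was 0 of 10259 with no filter on dim spots and 1 of 4936 where 400 was required of both channels. An ordinary t-test of the mean log2 ratio against 0, with no fold cut, gave 0 after Benjamini-Hochberg adjustment and 613 at p under 0.05. A SAM score was computed without permutations, as the mean over its SE plus the median SE. An absolute score of at least 2, with a mean at least 2-fold either way, gave 176. The ripening list had 0 called, but 1 with median centring and 1 with no normalisation. It had 9 with the ordinary t-test at p under 0.05 and 10 with the SAM score. That t-test called 3 of the ethylene list, 2 of the dioxygenase list and 1 of the methionine sulfoxide reductase list, and the SAM score 1 of the dioxygenase list. With no normalisation 3376 probes were above 0 and 2344 below, against 2810 and 2910. Each array sets 1 pool of each genotype against the other, so the test of the mean ratio was itself a paired one. Depth of signal limited the markers only at the top of the scale.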
